A study of Mus musculus with 14 samples.

Results

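The genes described here drive the passage of a cell from G1 into S phase: the D-type cyclins Ccnd1, Ccnd2 and Ccnd3 with their kinases Cdk4 and Cdk6, the E-type cyclins Ccne1 and Ccne2 with their kinase Cdk2, and the pair Rb1 and E2f1. They were chosen by symbol, with earlier results of these data known. A probe set was assigned to one of them where the platform annotation names that symbol and no other, which gave 29 of the 34958 probe sets with 1 symbol and 10 of 18194 genes. Each gene was read from its brightest probe set, by the mean of all 14 arrays, and the other 19 served as a check. For Ccnd2, Cdk4 and Ccne1 the name of the brightest ends in _x_at, which marks probes that may also match other transcripts.

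Expression was measured on Affymetrix arrays in sorted bone marrow cells without lineage markers and with Sca1 and Kit on their surface (LSK cells), a fraction that contains hematopoietic stem cells and multipotent progenitors. All mice were hCD34 x H2BGFP double transgenic on a C57BL/6 background, with a histone H2B-GFP label under a Tet-off driver (huCD34-tTA) that, per the series' design text, uses the human CD34 promoter and so labels only cells in which that promoter works. All received doxycycline at 1 mg/ml in drinking water for 12 weeks, starting when they were 6 to 8 weeks old, which shut the label off and let each division dilute it. The groups were GFP0 (lowest label, 2 arrays), GFP1 (3 arrays), GFP2 (3 arrays), GFP3 (2 arrays) and GFP4 (highest label, 4 arrays), and the series' design text puts about 1 to 2 divisions between neighbouring levels. The sample titles call the arrays biological replicates. The labels do not say how many animals stand behind an array or whether animals were pooled. Errors therefore describe the spread between sorted samples, which may be technical in part. The study ranks the level of the label by divisions during the chase. It does not measure whether a cell was in cycle when it was sorted, and in GFP0 cells that had diluted the label cannot be told apart from cells that never carried it.

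D-type cyclins accumulate in response to growth signals, bind CDK4 or CDK6, and start the phosphorylation of the retinoblastoma protein Rb, which holds E2F transcription factors in check. Freed E2F raises the transcription of E-type cyclins and of genes for DNA synthesis, and cyclin E with CDK2 completes the phosphorylation of Rb. Most stem cells of adult marrow rest outside the cycle, and in human stem cells the level of CDK6 is known to set how fast they leave that state.

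Values are log2 expression, differences and slopes are log2 differences, and ± after a slope or difference is the moderated standard error. With GFP level, Cdk6 and Ccne2 fell, no member rose, and the other 8 did not pass the test. These are 2 of 10 genes, while 3.35% of all genes tested passed, 2.28% upwards and 1.07% downwards. Without adjustment, 5 of the 10 had a downward slope with p under 0.05 (limma), where 7% of all genes did. For any difference between the levels, 3 of the 10 passed (Cdk6, Ccne2 and Cdk4), where 0.698% of all genes did. The median slope of the 10 genes was -0.13 per level, against -0.01 over all genes. Of the 10 slopes 7 were below 0, as were 54.8% over all genes, and the 3 above 0 were those of the D-type cyclins. In these sorted populations fewer cells in cycle and less RNA per cell cannot be told apart.

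**Figure D1:**
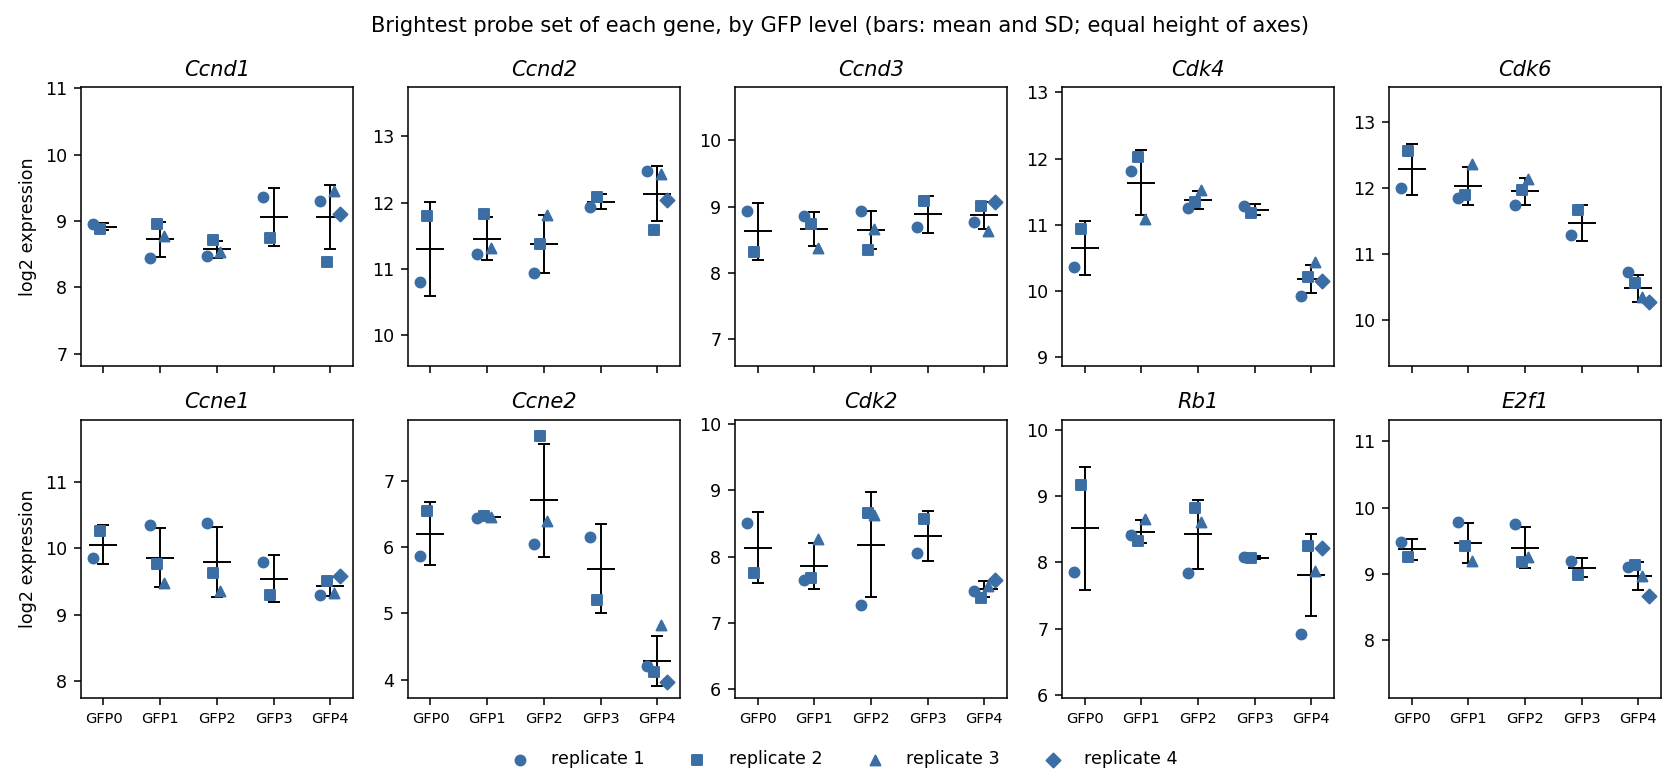
Log2 expression of the 10 genes in each of the 14 arrays, by GFP level. Points are arrays with 1 marker per replicate number, and bars give the mean and SD of a level; all panels span the same height. The 4 GFP4 arrays of Cdk6 lie between 10.28 and 10.73, below the other 10 arrays.

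Among the D-type cyclins, Ccnd2 had the highest values in every array and Ccnd1 and Ccnd3 lay close to each other, although levels of different probe sets are not comparable in amount. Ccnd2 encodes the D-type cyclin that hematopoietic cells use in response to cytokines. It read 10.80 and 11.80 in GFP0, 11.23, 11.83 and 11.31 in GFP1, 10.94, 11.38 and 11.81 in GFP2, 11.93 and 12.09 in GFP3, and 12.48, 11.59, 12.44 and 12.04 in GFP4. The GFP3 and GFP4 arrays sat mostly above the rest, but GFP4 replicate 2 lay below GFP0 replicate 2. The slope was 0.22 ± 0.08 per level (unadjusted p = 0.0115, adjusted p = 0.143 in limma), with a 95% interval of 0.06 to 0.39, and it did not pass. GFP4 averaged 12.14 ± 0.41 (SD, n = 4) and GFP0 11.30 ± 0.70 (SD, n = 2), a difference of 0.83 ± 0.33 (adjusted p = 0.259). Without GFP0 replicate 1 that difference was 0.34, and without GFP0 replicate 2 it was 1.33. Of the other 6 probe sets of Ccnd2, 5 had slopes between 0.14 and 0.24 and a dim one, at a mean of 6.67, had -0.03. The one with the slope of 0.14 was also dim, at a mean of 6.76. None of the 6 passed.

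Ccnd1, the D-type cyclin of many epithelial and tumour cells, ran between 8.37 and 9.46 over the arrays, and both of these values came from GFP4. In order of label, the 5 levels had means of 8.91 ± 0.05, 8.72 ± 0.26, 8.57 ± 0.12, 9.06 ± 0.44 and 9.06 ± 0.48 (SD; n = 2 for GFP0, 3 for GFP1 and GFP2, 2 for GFP3 and 4 for GFP4). GFP3 lay above GFP2 without overlap (0.49 ± 0.30, unadjusted p = 0.124 in limma), the other neighbouring levels overlapped, and no step passed. The slope of 0.06 ± 0.06 (adjusted p = 0.689) had a 95% interval of -0.07 to 0.20. Ccnd3, which lymphoid precursors need, had means of 8.63 ± 0.43, 8.66 ± 0.25, 8.65 ± 0.29, 8.88 ± 0.28 and 8.87 ± 0.21 in the same order (SD, same n). Its slope was 0.07 ± 0.05 (adjusted p = 0.573), with a 95% interval of -0.05 to 0.19. A second Ccnd3 probe set, at a mean of 8.64, had a slope of 0.28 ± 0.07 (unadjusted p = 0.0021, adjusted p = 0.0752 over all probe sets) and barely followed the first over the arrays (r = 0.19, a description over 14 arrays). The third, at a mean of 8.40, had a slope of 0.02 ± 0.05 (adjusted p = 0.863), so the 3 probe sets differed in their slopes and none passed.

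The promoters of the G1 kinases are shown because Cdk6, Cdk4 and Cdk2 are the kinases compared below and because E2F and Myc are textbook regulators at this point of the cycle. RefSeq promoter entries (GRCm38.p6) were matched for 6 of the 10 genes: Ccnd3, Cdk4, Cdk6, Ccne1, Cdk2 and E2f1. The 250 bases before each annotated start were searched on both strands for the E-box CACGTG, the word bound by Myc and related factors, and for the E2F words TTTCGCGC, TTTGGCGC, TTTCCCGC and TTTGCCGC. Matches are in capitals in the lines below, which run 5′ to 3′ on the strand of the gene. They lie at chr5:3343643-3343892 (plus strand) for Cdk6, chr10:127063285-127063534 (plus strand) for Cdk4 and chr10:128705052-128705301 (minus strand) for Cdk2, upstream of the first exon.
Cdk6: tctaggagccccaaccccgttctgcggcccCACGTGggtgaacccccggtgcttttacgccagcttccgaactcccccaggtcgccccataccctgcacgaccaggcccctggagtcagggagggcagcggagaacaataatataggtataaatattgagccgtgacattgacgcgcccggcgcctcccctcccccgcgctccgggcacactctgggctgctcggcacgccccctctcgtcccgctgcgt
Cdk4: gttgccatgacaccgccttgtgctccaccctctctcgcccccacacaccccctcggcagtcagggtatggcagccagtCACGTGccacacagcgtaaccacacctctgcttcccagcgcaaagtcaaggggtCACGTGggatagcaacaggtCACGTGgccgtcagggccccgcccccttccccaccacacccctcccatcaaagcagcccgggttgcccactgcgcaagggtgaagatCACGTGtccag
Cdk2: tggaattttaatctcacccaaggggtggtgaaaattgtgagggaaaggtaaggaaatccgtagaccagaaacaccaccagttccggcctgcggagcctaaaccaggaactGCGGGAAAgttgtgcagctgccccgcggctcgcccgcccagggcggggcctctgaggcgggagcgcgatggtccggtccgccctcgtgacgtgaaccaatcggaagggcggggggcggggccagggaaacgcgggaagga
The Cdk4 window holds 4 E-boxes, at positions -172, -118, -98 and -11 relative to the start, and the Cdk6 window holds 1. At least 1 E-box was found in 6.02% of the 32851 windows searched and at least 4 in 0.0213%. The Cdk2 window holds 1 E2F word (TTTCCCGC, read on the opposite strand), as 1.86% of windows hold at least 1, and the windows of the other 5 genes hold none. The matched E2f1 window reads for the most part as E2f1 coding sequence, before an internal start. It therefore says nothing about E2F words in the promoter of E2f1. A match is a string of letters and not a measured binding site, and these arrays hold no binding data.

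Cdk6, a partner kinase of the D-type cyclins, fell with GFP level. It read 12.00 and 12.55 in GFP0, 11.84, 11.89 and 12.36 in GFP1, 11.74, 11.96 and 12.14 in GFP2, 11.28 and 11.66 in GFP3, and 10.73, 10.57, 10.35 and 10.28 in GFP4. The GFP4 arrays were below all others without overlap, the GFP3 arrays were below those of GFP0 to GFP2, and the arrays of GFP0, GFP1 and GFP2 overlapped. Such a place of the GFP4 arrays under the other 10 was seen for 2 of the 10 genes, Cdk6 and Ccne2, and for 0.753% of all genes. The slope was -0.42 ± 0.05 per level (adjusted p = 0.00177). GFP4 averaged 10.48 ± 0.20 (SD, n = 4) and GFP0 12.28 ± 0.39 (SD, n = 2), a difference of -1.80 ± 0.23 (adjusted p = 0.00461), so that GFP4 had 0.288 times the GFP0 level. Of the 10 genes 2 passed this contrast, both downwards, where 1.68% of all genes passed, 1.25% upwards and 0.429% downwards.

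Along the levels, no single step of Cdk6 passed. GFP1 minus GFP0 was -0.25 ± 0.24, GFP2 minus GFP1 -0.09 ± 0.22, GFP3 minus GFP2 -0.47 ± 0.24 and GFP4 minus GFP3 -0.99 ± 0.23. The last of these had an unadjusted p of 0.000884 in limma but an adjusted p of 0.888. In limma 0 of 18194 genes passed at any single step, while 10.8%, 2.71%, 1.36% and 3.94% had an unadjusted p under 0.05 at the 4 steps in that order. For GFP4 against GFP3, 4 of the 10 genes did so downwards (Cdk6, Cdk4, Ccne2 and Cdk2), as did 2.7% of all genes. A departure from a straight line was likewise not called (unadjusted p = 0.0329, adjusted p = 0.679, 0 genes called and 7.01% under an unadjusted 0.05). A second Cdk6 probe set, at a mean of 10.38, fell by 0.36 ± 0.07 per level (adjusted p = 0.0176 over all probe sets) and followed the first with r = 0.94 over the arrays. The third, at 6.18 and thus under the table median of 7.03, had -0.13 ± 0.06 (adjusted p = 0.352). The slope of Cdk6 passed in all 27 alternatives, with values from -0.50 to -0.30 and adjusted p from 0.000904 to 0.0213. Its call for any difference (adjusted p = 0.0114 in limma) was lost in 2 of 25, with the replicate number as a block (adjusted p = 0.0528) and with covariates for RNA quality (adjusted p = 0.0516).

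**Figure D2:**
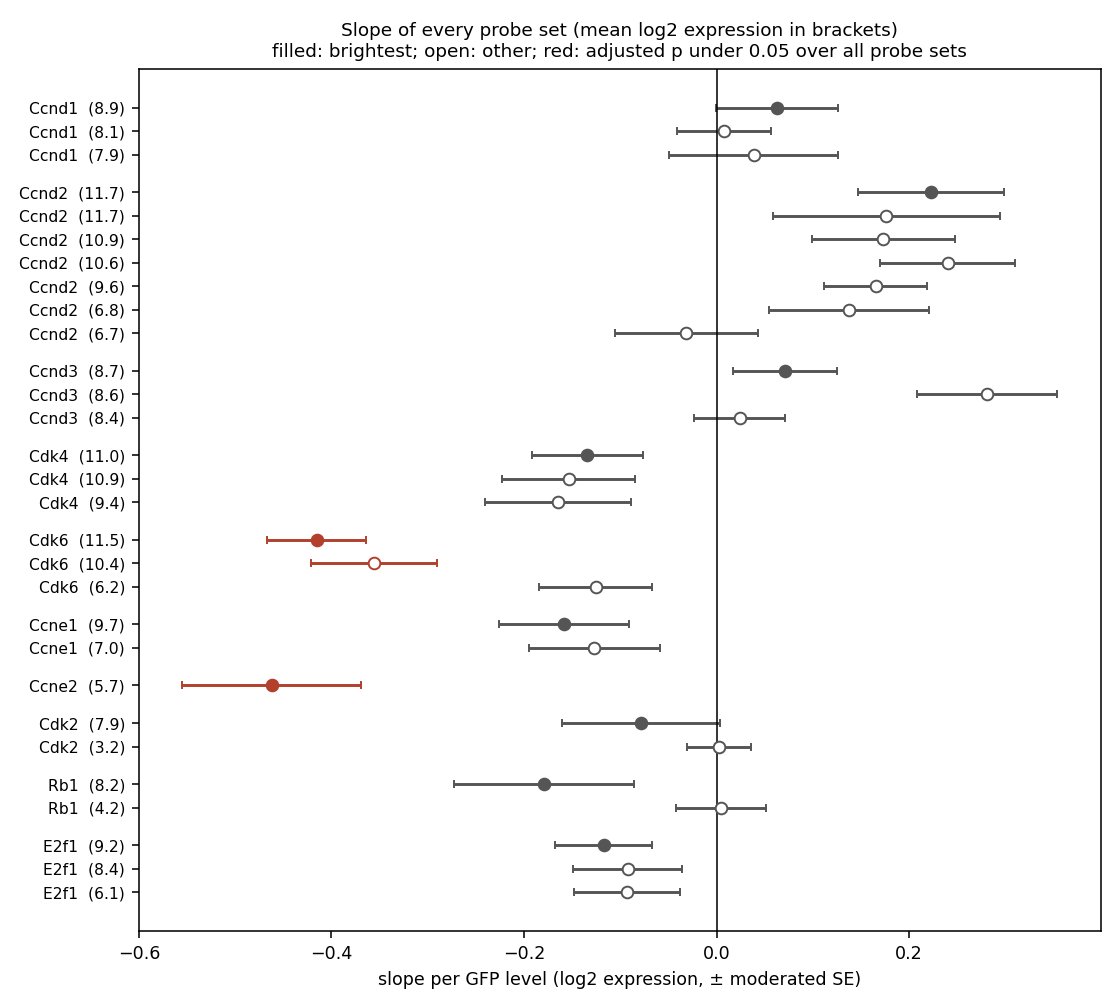
Slope per GFP level (x axis, log2 expression, with moderated SE) of each of the 29 probe sets, grouped by gene, with the mean level in brackets. Filled points are the brightest probe sets and red ones passed over all probe sets. The brighter 2 of the 3 Cdk6 probe sets and the single Ccne2 probe set lie left of the others.

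Cdk4, the other kinase of the D-type cyclins, had its lowest values at both ends of the label. It read 10.37 and 10.94 in GFP0, 11.81, 12.02 and 11.09 in GFP1, 11.25, 11.35 and 11.53 in GFP2, 11.29 and 11.18 in GFP3, and 9.93, 10.22, 10.44 and 10.16 in GFP4. Every GFP1, GFP2 and GFP3 array lay above every GFP0 and GFP4 array, while GFP4 and GFP0 overlapped. The levels differed (adjusted p = 0.0368 for any difference, in limma), with the order GFP1, GFP2, GFP3, GFP0 and GFP4 from high to low. The slope of -0.13 ± 0.06 (adjusted p = 0.262) and the GFP4 minus GFP0 difference of -0.47 ± 0.26 (adjusted p = 0.443) did not pass. The difference was -0.75 without GFP0 replicate 1 and -0.18 without GFP0 replicate 2. With covariates for RNA quality the difference was -0.23 and the slope -0.06. A departure from a line was not called (unadjusted p = 0.000496, adjusted p = 0.679, in limma). GFP1 minus GFP0 was 0.99 ± 0.27 (unadjusted p = 0.00301 in limma) and GFP4 minus GFP3 was -1.05 ± 0.26 (unadjusted p = 0.00134). Neither step passed after adjustment. The other 2 Cdk4 probe sets tracked the first with r of 0.97 and 0.99 over the arrays, but over all probe sets none of the 3 passed for any difference (adjusted p = 0.0512, 0.144 and 0.0750). In limma the call was lost in 19 of 25 alternatives. Among them were cyclic loess (adjusted p = 0.0621), arrays centred on their medians (adjusted p = 0.0622) and the replicate block (adjusted p = 0.143). They included covariates for RNA quality (adjusted p = 0.232) and the interquartile range as covariate (adjusted p = 0.100). Among them were also 12 of the 14 fits that left out 1 array, and the call was kept without GFP0 replicate 2 or GFP1 replicate 3.

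Ccne2, one of the 2 E-type cyclins and an E2F target, fell with GFP level, at values in the dim range of the array. It read 5.86 and 6.54 in GFP0, 6.44, 6.47 and 6.45 in GFP1, 6.05, 7.67 and 6.40 in GFP2, 6.15 and 5.20 in GFP3, and 4.21, 4.12, 4.83 and 3.97 in GFP4. The GFP4 arrays were again below all others, GFP3 replicate 2 came next, and the remaining arrays overlapped. The slope was -0.46 ± 0.09 (adjusted p = 0.0197), and levels differed with adjusted p = 0.0285 in limma. That second call was lost in 8 of 24 alternatives, among them the fits without GFP4 replicate 1 (adjusted p = 0.0760) or replicate 4 (adjusted p = 0.109), with arrays centred on their medians (adjusted p = 0.0558) and with the replicate block (adjusted p = 0.144). GFP4 averaged 4.28 ± 0.38 (SD, n = 4) and GFP0 6.20 ± 0.48 (SD, n = 2), a difference of -1.92 ± 0.41 (adjusted p = 0.0368). The mean over all arrays, 5.74, was at the 13.3rd percentile of gene means, and no detection calls come with the values, so how far the GFP4 readings stand above background is not known. The slope did not pass without GFP0 replicate 1 (-0.53, adjusted p = 0.0544), without GFP0 replicate 2 (-0.39, adjusted p = 0.0981) or without GFP3 replicate 2 (-0.41, adjusted p = 0.0694). The difference between GFP4 and GFP0 did not pass without either GFP0 array or without GFP4 replicate 1, 2 or 4 (values from -2.26 to -1.58 over all 14 fits, adjusted p up to 0.147).

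Ccne1, the other E-type cyclin, had means of 10.06 ± 0.29, 9.86 ± 0.45, 9.79 ± 0.53, 9.54 ± 0.35 and 9.43 ± 0.14 in order of rising label (SD; n = 2, 3, 3, 2 and 4). The 4 GFP4 arrays, from 9.29 to 9.58, lay below both GFP0 arrays (9.85 and 10.26), but neighbouring levels overlapped. The slope of -0.16 ± 0.07 (unadjusted p = 0.0366, adjusted p = 0.258) did not pass, and its 95% interval ran from -0.30 to -0.01. The second probe set, at a mean of 7.03, had a slope of -0.13 ± 0.07 and followed the first with r = 0.85. Cdk2, the kinase that both E-type cyclins activate, read 7.48, 7.37, 7.56 and 7.66 in GFP4 and 8.52 and 7.76 in GFP0. GFP4 was the tightest level, at an SD of 0.12, while the GFP2 arrays spread from 7.28 to 8.65. Its slope was -0.08 ± 0.08 (adjusted p = 0.694, 95% interval -0.26 to 0.10), and its GFP4 minus GFP0 difference -0.62 ± 0.36 (adjusted p = 0.476). That difference was -0.24 without GFP0 replicate 1 and -0.998 without GFP0 replicate 2. The other Cdk2 probe set, at a mean of 3.17, is near the floor of the table (2.69) and gives no check.

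Rb1, the pocket protein that D-type cyclin kinases phosphorylate, read 6.93, 8.24, 7.87 and 8.21 in GFP4 and 7.85 and 9.17 in GFP0. Its lowest value and the lower of the GFP0 values came from the 2 arrays with the narrowest spread of all probe sets, GFP4 replicate 1 and GFP0 replicate 1. The slope of -0.18 ± 0.09 (adjusted p = 0.363) did not pass. The GFP4 minus GFP0 difference was -0.70 ± 0.41 (adjusted p = 0.475), -1.36 without GFP0 replicate 1 and -0.04 without GFP0 replicate 2, so the 2 GFP0 arrays set its size. E2f1, the activating factor held by Rb, was steadier, with means of 9.37 ± 0.16, 9.47 ± 0.30, 9.39 ± 0.31, 9.09 ± 0.15 and 8.97 ± 0.21 in order of rising label (SD; n = 2, 3, 3, 2 and 4). All GFP4 arrays (9.10, 9.14, 8.97 and 8.67) lay below both GFP0 arrays (9.48 and 9.26). The slope was -0.12 ± 0.05 (unadjusted p = 0.0378, adjusted p = 0.262), the other 2 probe sets had -0.09 each, and none passed. In all, 5 of the 10 genes had every GFP4 array below both GFP0 arrays (Cdk6, Ccne1, Ccne2, Cdk2 and E2f1) and none the reverse, where 7.75% of all genes lay that way and 10.4% the reverse.

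Whether related genes changed unequally was asked for 8 pairs, from the difference of their log2 values within each array, with an exact two-sided permutation test over all 25225200 assignments of 14 arrays to the levels and adjustment over the 8 pairs. The slope of Cdk6 was lower than that of Cdk2 by 0.34 per level (difference -0.34 ± 0.09, SE; exact permutation p = 0.00325, adjusted 0.0260). It was also lower than that of Cdk4 (-0.28 ± 0.09, SE; exact permutation p = 0.00951, adjusted 0.0380). The Cdk6 minus Cdk4 difference was 1.64 and 1.62 in the GFP0 arrays, and between -0.13 and 1.28 in the other 12, so both GFP0 arrays stood above the rest. From GFP1 to GFP4 its means were 0.39 ± 0.77, 0.57 ± 0.075, 0.24 ± 0.35 and 0.30 ± 0.38 (SD; n = 3, 3, 2 and 4). The Cdk6 minus Cdk2 difference averaged 4.14 ± 0.93, 4.17 ± 0.06, 3.76 ± 0.61, 3.16 ± 0.10 and 2.96 ± 0.30 at rising label (SD; n = 2, 3, 3, 2 and 4). Cdk6 against Cdk2 did not pass without GFP0 replicate 2 (-0.21, exact permutation test, adjusted p = 0.290). Cdk6 against Cdk4 passed in 4 of the 14 fits that left out 1 array (adjusted exact permutation p from 0.0177 to 0.133 over the 14). It did not pass without either GFP0 array, any GFP2 array, GFP1 replicate 3, GFP3 replicate 1 or GFP4 replicate 2, 3 or 4.

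**Figure D3:**
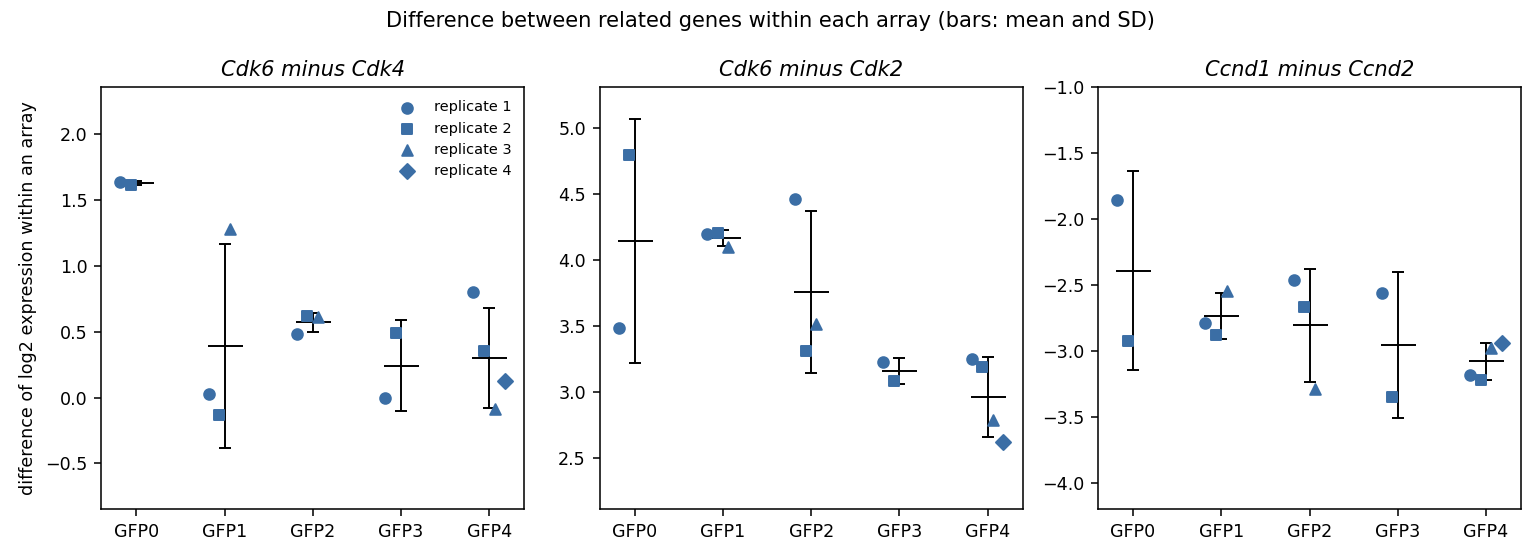
Difference of log2 expression within each array for the 3 pairs with the lowest p: Cdk6 minus Cdk4, Cdk6 minus Cdk2 and Ccnd1 minus Ccnd2, by GFP level. Points are arrays and bars give the mean and SD; both GFP0 arrays of Cdk6 minus Cdk4, at 1.64 and 1.62, lie above the other 12.

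The other 6 pairs did not pass. Ccne2 against Ccne1 differed by -0.30 ± 0.13 per level (SE; exact permutation p = 0.1245, adjusted 0.249). The 95% interval of this difference, -0.60 to -0.0042, lay just below 0, unlike those of the other 5 pairs, but the exact test did not pass, so the passing of Ccne2 beside Ccne1 does not show that the E-type cyclins changed unequally. Among the D-type cyclins, Ccnd1 had a lower slope than Ccnd2 by 0.16 (difference -0.16 ± 0.08, SE; exact permutation p = 0.0327, adjusted 0.0871), with a 95% interval of -0.33 to 0.01. Ccnd2 against Ccnd3 gave 0.15 ± 0.12 (95% interval -0.12 to 0.43) and Ccnd1 against Ccnd3 gave -0.01 ± 0.11 (95% interval -0.25 to 0.23). Cdk4 against Cdk2 gave -0.06 ± 0.12 (95% interval -0.33 to 0.22), and Rb1 against E2f1 gave -0.06 ± 0.14 (95% interval -0.38 to 0.25). These intervals rest on the spread within levels and leave room for unequal changes of the size seen for Cdk6 in some of the pairs.

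The neighbours of these genes in the pathway were read from lists, beside all genes, of which 1.07% fell with GFP level and 2.28% rose. Of 7 CDK inhibitors, Cdkn1c (p57, which blocks cyclin D and cyclin E kinases) rose by 0.65 ± 0.08 per level (adjusted p = 0.00177) and Cdkn1a (p21) fell by 0.25 ± 0.05 (adjusted p = 0.0243), with 5 that did not pass and a list median of -0.02. Among those 5, Cdkn2c (p18, an inhibitor of CDK4 and CDK6) had -0.19 ± 0.10 and Cdkn1b (p27) 0.12 ± 0.07. Of 11 pocket proteins and E2F partners, E2f8, an atypical E2F that represses, fell by 0.31 ± 0.08 (adjusted p = 0.0490) and 10 did not pass, among them E2f2 (-0.15 ± 0.05) and Tfdp1 (-0.26 ± 0.09), a dimer partner of E2F; the median was -0.07. None of 12 activating and degrading factors passed for the slope in limma (2 of them under an unadjusted 0.05, both downwards), with Cks1b at -0.17 ± 0.05 and Ccnh, the cyclin of the CDK-activating kinase, at -0.11 ± 0.05. For GFP4 against GFP0, Cdkn1c was the one gene of these 3 lists to pass, at 2.39 ± 0.36 (adjusted p = 0.0089).

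The genes that E2F switches on at S phase entry were the list with the lowest median slope of these 4, at -0.26 per level over 19 measured of 20, with -1.06 for GFP4 against GFP0. Of them 7 fell with GFP level, none rose and 12 did not pass, where 1.07% of all genes fell and 2.28% rose. Of the lists of other cells read below, mast cell and basophil genes (-0.63) and neutrophil and monocyte genes (-0.65) had lower median slopes. The remaining lists of other cells had higher ones. Rrm2, Rrm1 and Tk1, which supply deoxynucleotides, had slopes of -0.52 ± 0.11, -0.31 ± 0.06 and -0.40 ± 0.09. The origin factors Cdt1, Orc1 and Mcm5 had -0.44 ± 0.06, -0.23 ± 0.05 and -0.29 ± 0.07, and Pola1, the polymerase that starts new strands, had -0.33 ± 0.08. Mcm4 (-0.26 ± 0.07) and Mcm6 (-0.21 ± 0.06) did not pass. Rrm2, Mcm5, Mcm4 and Mcm6 were read from _x_at probe sets, which may also match other transcripts. Against GFP0, GFP4 was lower for Cdt1 (-2.07), Rrm2 (-2.28) and Orc1 (-1.06), and the other 16 did not pass. Of all genes 0.429% passed downwards in this contrast.

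**Figure D4:**
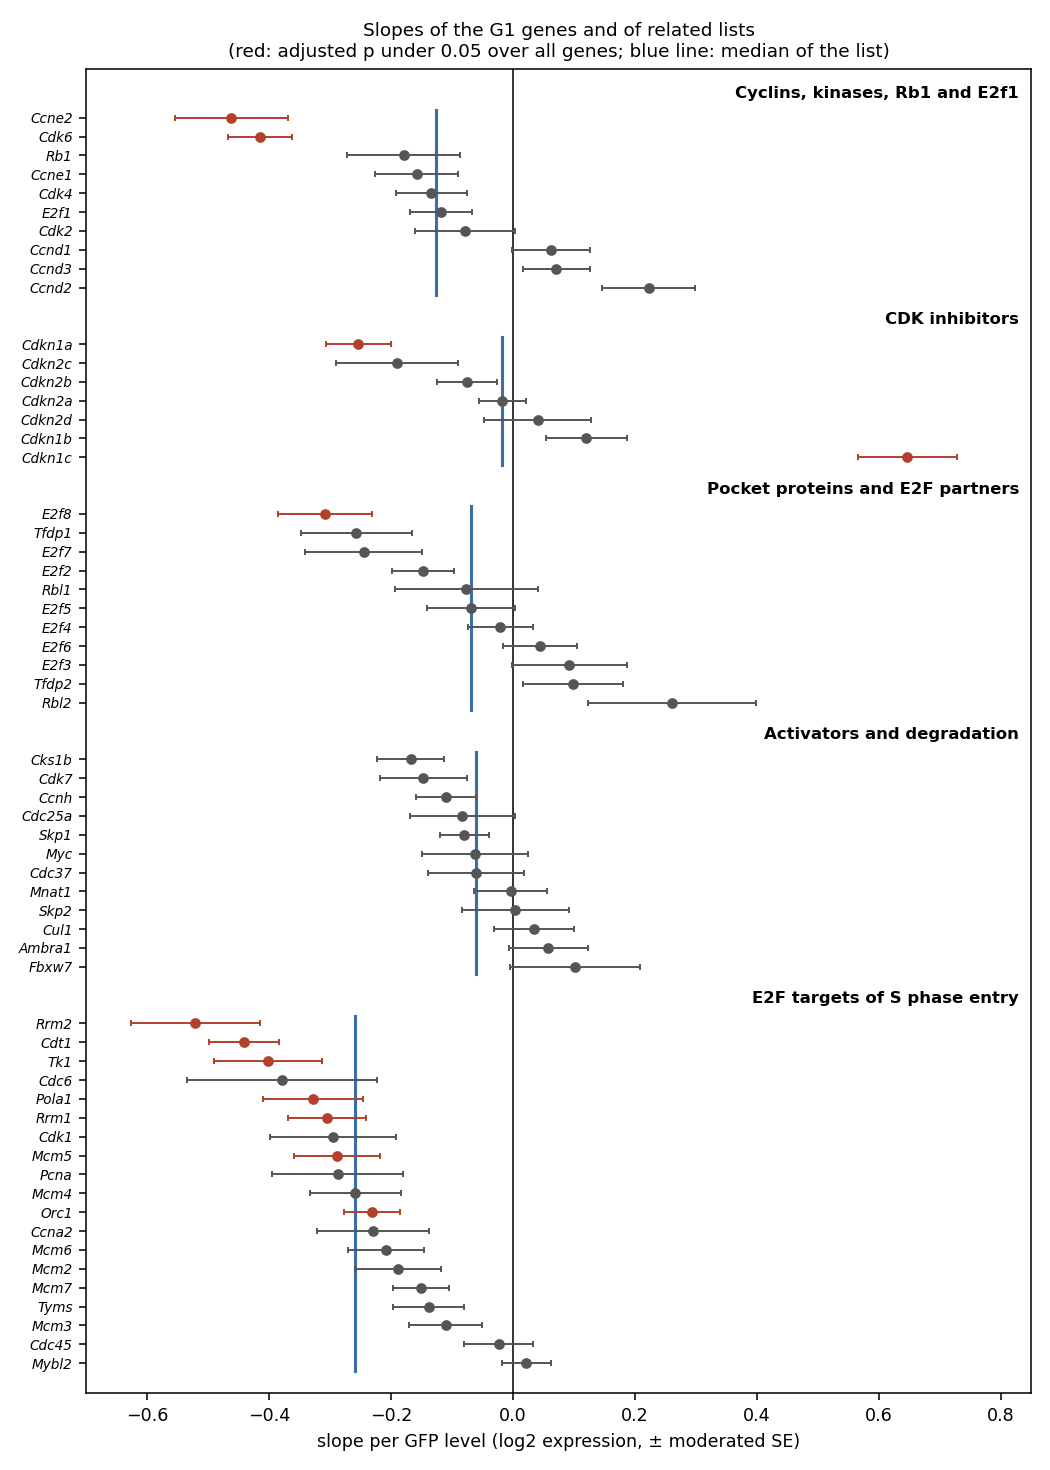
Slope per GFP level (x axis, log2 expression, with moderated SE) of the 10 genes and of 4 related lists, sorted within each list. Red genes passed over all genes and blue lines mark list medians, from -0.26 for the E2F targets to -0.02 for the CDK inhibitors.

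Over the 14 arrays, the genes whose values ran most like those of Cdk6, among 11038 candidates at or above the table median, were Hnrnpll (r = 0.916), Mms22l (0.914), Cdt1 (0.911), Rgs2 (0.904) and Bex6 (0.899). The lowest r were those of Lst1 (-0.931), Wfdc2 (-0.894) and Unc45bos (-0.868). Genes read from an _x_at probe set were not among the candidates. For Ccne2 the closest were Orc6 (r = 0.943), Pola1 (0.930), Brix1 (0.930), Hnrnpll (0.928) and Tk1 (0.921), and the most opposed Pde1b (-0.891), Fam214b (-0.886) and P3h4 (-0.882). Orc6 and Pola1 act in DNA replication, and Hnrnpll, which regulates splicing in lymphocytes, stood in both sets. Cdk6 and Ccne2 ran together with r = 0.845, and Cdk4 followed Ccne2 with 0.783. E2f1 and Ccne1 had r = 0.747, while Ccnd2 and E2f1 had -0.709. These are descriptions over arrays that share levels and normalization.

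Several markers of other cells fell with GFP level, while measures of array quality overlapped between GFP4 and GFP0. The interquartile range of all probe sets was 2.21 to 2.48 in GFP4 and 2.09 and 2.41 in GFP0, and the excess of 3′ over 5′ signal of Actb was 3.99 to 5.05 in GFP4 and 4.39 and 4.51 in GFP0. In GFP2 the Actb excess was 3.63, 3.57 and 3.93, lower than in any GFP0 or GFP4 array. It was 2.99, 4.18 and 4.72 in GFP1 and 4.20 and 4.01 in GFP3. Pairs of arrays correlated with r from 0.928 to 0.990 within a level and from 0.911 to 0.990 between levels. Kit, part of the sort, averaged 9.07 and Cd34 10.8, both above the table median. Kit was not even over the levels, with means of 8.51, 8.58, 9.39, 9.73 and 9.15 from GFP0 to GFP4. Its slope of 0.24 ± 0.09 did not pass (unadjusted p = 0.0175, adjusted p = 0.178, in limma). Ly6a, the gene of Sca1, was not analysed here. Of 6 measured genes of the LSK phenotype, Procr (0.78 ± 0.11 per level) and Meis1 (0.40 ± 0.08), both known from stem cells, rose with GFP level and the other 4 did not pass. Of markers of other cells, 3 of 7 mast cell and basophil genes fell with GFP level, as did 2 of 7 B cell genes, 1 of 8 neutrophil and monocyte genes, 1 of 7 T and NK cell genes and 2 of 5 erythroid genes, and 0 of 7 endothelial and stromal genes passed (limma; 1 of them had an upward slope under an unadjusted 0.05). The mean of the neutrophil and monocyte list ran from 7.67 to 9.77 in GFP4 and from 9.99 to 11.89 in GFP0, that of the mast cell list from 6.25 to 7.59 in GFP4 and from 8.58 to 8.71 in GFP0, and that of the B cell list from 7.58 to 8.11 in GFP4 and from 8.40 to 9.44 in GFP0. The erythroid list ran from 6.69 to 7.41 in GFP4 and from 7.96 to 9.06 in GFP0, the T and NK cell list from 7.10 to 7.72 in GFP4 and from 8.02 to 8.87 in GFP0, and the endothelial list from 6.90 to 7.43 in GFP4 and from 6.73 to 6.83 in GFP0. In none of the 6 lists did the GFP4 and GFP0 ranges overlap. Of all single genes, 7.75% lay lower in GFP4 than in GFP0 without overlap and 10.4% higher. These shares count single genes and not means of lists, so they give no rate for the lists. By slope, 1.07% of all genes fell with GFP level and 2.28% rose. With no detection calls, none of these markers can be read as absent. The part of these cells in the falls of Cdk6 and Ccne2 was not tested. With covariates for RNA quality (how far the 3′ probe sets of Actb and Gapdh exceed their 5′ ones) the Cdk6 slope was -0.39 (adjusted p = 0.0213) and the Ccne2 slope -0.43 (adjusted p = 0.142). Without the 2 arrays of narrow spread they were -0.49 (adjusted p = 0.00723) and -0.52 (adjusted p = 0.0856).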

How the data were processed

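Amplified, biotin-labelled RNA was hybridised, per the labels' protocols. The deposited values are log2 expression per probe set, which the authors obtained with GCOS, RMA and affy, per the submitters' processing notes (no versions). RMA corrects background, normalizes quantiles and summarizes probes. The deposited arrays nevertheless did not share a common distribution. Their medians ran from 6.96 (GFP1 replicate 1) to 7.18 (GFP0 replicate 1). Their interquartile ranges ran from 2.09 (GFP0 replicate 1) to 2.73 (GFP2 replicate 3). A genome build is not given in the sources used here. Each of 14 columns was matched to its sample, and 0 belonged to none. Of 45101 probe sets 34958 named 1 symbol, 932 several and 9211 none.

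Values were used as deposited. Group means were fitted in limma 3.58.1 (R 4.3.3) to all arrays with 9 residual and 3.99 prior degrees of freedom, because 2 levels have 2 arrays. Contrasts were the slope (equal weight per level), GFP4 minus GFP0 and 4 steps, with moderated F tests for any difference and for departure from a line. Tests were two-sided, adjusted by Benjamini-Hochberg over all genes, with a threshold of 0.05; SDs are over arrays. The slope, GFP4 minus GFP0, GFP4 minus GFP3, any-difference and permutation tests were tested on simulated data. Members, lists and tests were chosen with earlier results of these data known. All 10 members are named; from lists, all genes past the threshold and the 2 next by slope p; for each member that passed, the 5 highest and 3 lowest correlations. Some listed genes are not reported here. Promoter sequences are RefSeq's. Figures used matplotlib 3.10.9. Alternatives are in the closing section; the number of arrays limits precision.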

Additional observations from a re-analysis of the deposited data

How the results depend on the processing

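Gene counts come from limma and differences of slopes from the exact permutation test, with one choice changed at a time. For the slope 609 genes passed in all, against totals of 165 with the 3 prime to 5 prime covariates, 90 with array quality weights, 156 without the 2 arrays of narrow spread (GFP0 replicate 1 and GFP4 replicate 1) and 269 without GFP4 replicate 2 too. For GFP4 against GFP0 the main count was 306, and these settings gave 142, 2, 41 and 112, while the arrays of these 2 levels alone gave 58. For any difference the main count was 127, and the settings gave 11, 335, 20 and 38, with 80 under the interquartile range as covariate and 38 after centring arrays on their medians. The departure from a line was called for 1 gene without the narrow arrays, and steps for 2 genes without them, 2 without GFP4 replicate 2 too and 2 with weights. The settings that involve covariates, the narrow arrays or GFP4 replicate 2 were chosen after seeing the data. The cause of these moves was not tested.

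Of the 10 genes, 1 passed for the slope (Cdk6) with the 3 prime to 5 prime covariates, weights, either set of arrays left out, the replicate block or the filter on dim genes, which removes Ccne2 by construction. For GFP4 against GFP0, 1 passed under these settings and under the interquartile range covariate, centring, cyclic loess, the 2 levels alone or every probe set by itself, and 0 with weights (Cdk6 -1.90, adjusted p = 0.0738). The Cdk2 slope was 0.016 without the narrow arrays and GFP4 replicate 2.

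Leaving out 1 array at a time gave 182 to 768 genes for the slope, 51 to 363 for GFP4 against GFP0, 28 to 158 for any difference, 0 to 1 for the departure and 0 to 4 for the steps, and 1 to 2 of the 10 genes for the slope and for GFP4 against GFP0. The Ccnd3 difference between GFP4 and GFP0 ran from -0.061 to 0.55. Differences of slopes ran from -0.27 to -0.053 for Ccnd1 and Ccnd2, -0.062 to 0.047 for Ccnd1 and Ccnd3, -0.0088 to 0.31 for Ccnd2 and Ccnd3, -0.35 to -0.27 for Ccne2 and Ccne1, -0.19 to 0.077 for Cdk4 and Cdk2, -0.47 to -0.21 for Cdk6 and Cdk2, -0.31 to -0.24 for Cdk6 and Cdk4, and -0.22 to 0.092 for Rb1 and E2f1.

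Whether replicate numbers pair the arrays is not known. Deviations of same-numbered arrays correlated from -0.26 to 0.58 (median 0.05, 23 pairs), and 5 of 13 arrays correlated best with their own number. The mean of the neutrophil and monocyte list fell with replicate number in GFP1 (10.7, 9.8 and 7.7) and GFP2 (10.2, 9.1 and 7.5), as in GFP0 and GFP3. In GFP4 it did not (7.9, 9.8, 8.7 and 7.7). With the replicate block, 337 genes passed for the slope, 67 for GFP4 against GFP0 and 34 for any difference. Cdk6 had -0.41 (adjusted p = 0.00710) and Ccne2 -0.44 (adjusted p = 0.0703) for the slope. Small groups and dim signal, as for Ccne2, limit these results.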
